A study of Homo sapiens with 34 samples.

Results

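The 10 genes described here, which mammals express mainly from 1 parental copy and which are called imprinted, were followed across the histone marks of neuroblastoma cells. The members are the 2 non-coding genes H19 and MEG3 and the 8 coding genes IGF2, DLK1, PLAGL1, PEG3, SNRPN, PEG10, MEST and GNAS. They were chosen by name, and they are 10 of the 38726 protein-coding and long non-coding genes annotated on the autosomes and X. KELLY, a MYCN-amplified human neuroblastoma line, carried a short hairpin RNA against the corepressor gene RUNX1T1 that doxycycline switches on. All cells carried the hairpin, and the groups differed in 72 h of Doxycycline or of the solvent DMSO. Chromatin immunoprecipitation and sequencing (ChIP-seq) gave a peak list for each of 5 marks in 3 DMSO and 3 Doxycycline libraries, 30 lists in all, and 4 input samples without lists completed the series. A doxycycline group with a hairpin that has no target was not among the lists, so an effect of the drug itself and an effect of the knockdown cannot be told apart. RUNX1T1 levels were not measured in these libraries.

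Imprinted genes sit in clusters whose parental copies are told apart by DNA methylation at imprinting control regions. On the methylated copy the zinc finger protein ZFP57 keeps that methylation, and at the H19 and IGF2 locus the insulator protein CTCF binds the unmethylated maternal copy, which separates IGF2 from the enhancers beyond H19. H3K4me3 marks active or poised start sites, H3K27ac active start sites and enhancers, H3K4me1 enhancers, H3K4me2 both, and H3K27me3 is the mark of Polycomb repression. A list of peaks does not tell the parental copies apart. H3K4me3 and H3K27me3 in the same window may therefore lie on the same copy, on different copies or in different cells, and these cases cannot be told apart.

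Every annotated start site was extended by 1 kb on each side, and overlapping extensions of a gene were merged into a start-site window, numbered along the direction of transcription. The 10 genes held 195 start sites in 36 windows, with a median of 3.5 windows a gene (1 to 6) against 1 for all genes. Windows were shared with antisense or neighbouring genes: MEG3 window 3 with MIR493HG, IGF2 window 3 with IGF2-AS, PLAGL1 window 2 with HYMAI, PEG3 window 1 with MIMT1 and ZIM2, PEG3 windows 2 and 4 with ZIM2, SNRPN window 3 with SNURF, PEG10 window 1 with SGCE, MEST window 2 with MESTIT1, and GNAS windows 1 and 2 with GNAS-AS1. Peaks carry no strand, so the partners of a shared window cannot be separated. A list was called at the depth of its immunoprecipitated or input library, whichever was smaller, which was 71.9 to 81.1 M reads for DMSO and 57.0 to 63.4 M for Doxycycline, so that depth and treatment cannot be told apart. The 6 H3K27me3 lists also fell into 3 with an estimated fragment of 256 to 280 bp (DMSO 1, Doxycycline 1 and Doxycycline 2) and 3 with one of 105 to 112 bp. As a check of the cells, the sympathetic neuroblast markers HAND2, GATA3, ISL1, TH and DBH held H3K4me3 and H3K27ac and lacked H3K27me3 at their start sites in all 6 libraries, and of 5 markers of other cells PTPRC held no mark, ALB and KRT5 held H3K27me3 alone, and the fibroblast genes COL1A1 and COL1A2 held H3K27ac in 4 libraries each and H3K4me1 in 6. COL1A1 also held H3K4me3 and H3K4me2 in 6 libraries and H3K27me3 in 5, and COL1A2 held H3K4me2 in 5 and no H3K4me3.

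Promoter sequences are shown for start sites whose marks differ within a gene: the upstream and the imprinted start of PLAGL1, the upstream and the imprinted start of MEST, the start of SNRPN in the Prader-Willi imprinting centre, and the main start of MEG3. Each runs 5′ to 3′ on the gene's strand from 250 bases before to 50 bases after a RefSeq start (GRCh38.p14), and 6 of the 10 genes had entries, 24 in all. Capitals mark matches on either strand to TGCCGC (the ZFP57 hexamer), GGNGGCAG (a CTCF core) and GCCATNTT (a YY1 core), and the hexamer on the reverse strand lies inside the CTCF core where N is C.
PLAGL1 window 1, chr6:144064550-144064849, minus strand: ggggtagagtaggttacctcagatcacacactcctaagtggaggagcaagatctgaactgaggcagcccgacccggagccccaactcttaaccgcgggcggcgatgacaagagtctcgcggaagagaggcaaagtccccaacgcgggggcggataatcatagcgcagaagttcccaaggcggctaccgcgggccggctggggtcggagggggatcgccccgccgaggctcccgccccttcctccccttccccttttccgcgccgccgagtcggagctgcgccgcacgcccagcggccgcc
PLAGL1 window 2, chr6:144008210-144008509, minus strand: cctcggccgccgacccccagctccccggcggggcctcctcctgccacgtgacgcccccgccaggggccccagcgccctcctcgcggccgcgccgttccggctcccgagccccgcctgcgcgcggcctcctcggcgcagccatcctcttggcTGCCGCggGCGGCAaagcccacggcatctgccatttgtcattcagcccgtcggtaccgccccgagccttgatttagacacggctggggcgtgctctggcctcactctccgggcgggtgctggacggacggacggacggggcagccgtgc
MEST window 1, chr7:130486097-130486396, plus strand: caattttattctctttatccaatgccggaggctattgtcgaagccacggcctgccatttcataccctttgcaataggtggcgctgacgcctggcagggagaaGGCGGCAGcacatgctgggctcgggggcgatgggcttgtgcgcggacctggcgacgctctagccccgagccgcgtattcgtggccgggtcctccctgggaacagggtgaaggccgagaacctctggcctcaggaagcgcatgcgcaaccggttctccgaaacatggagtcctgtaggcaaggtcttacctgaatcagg
MEST window 2, chr7:130491835-130492134, plus strand: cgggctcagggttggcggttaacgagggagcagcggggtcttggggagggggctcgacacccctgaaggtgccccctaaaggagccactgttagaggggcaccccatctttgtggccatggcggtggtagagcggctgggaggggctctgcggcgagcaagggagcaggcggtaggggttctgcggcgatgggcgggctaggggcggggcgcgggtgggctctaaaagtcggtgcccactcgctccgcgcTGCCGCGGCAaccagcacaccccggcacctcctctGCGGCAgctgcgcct
SNRPN window 3, chr15:24954737-24955036, plus strand: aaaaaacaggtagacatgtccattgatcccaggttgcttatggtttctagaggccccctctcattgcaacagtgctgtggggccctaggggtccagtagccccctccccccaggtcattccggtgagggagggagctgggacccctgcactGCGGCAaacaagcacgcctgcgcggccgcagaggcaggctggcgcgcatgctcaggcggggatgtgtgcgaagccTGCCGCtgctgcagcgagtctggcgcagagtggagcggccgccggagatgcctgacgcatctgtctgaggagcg
MEG3 window 2, chr14:100825858-100826157, plus strand: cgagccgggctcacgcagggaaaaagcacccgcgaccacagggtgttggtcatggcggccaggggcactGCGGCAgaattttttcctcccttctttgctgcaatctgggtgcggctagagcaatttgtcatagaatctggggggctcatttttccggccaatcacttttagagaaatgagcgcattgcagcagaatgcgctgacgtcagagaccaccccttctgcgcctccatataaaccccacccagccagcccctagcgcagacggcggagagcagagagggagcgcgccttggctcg

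The hexamer is present in the printed imprinted starts of PLAGL1 (2 matches), MEST (3), SNRPN (2) and MEG3 (1). The printed upstream start of PLAGL1 has none, and at that of MEST the hexamer lies inside the match to the CTCF core. Entries not printed varied. Those of H19, of GNAS windows 2 and 3 and of PLAGL1 windows 4 and 5 had no hexamer. Another of MEST window 2 (chr7:130491079-130491378), GNAS window 1 at chr20:58841370-58841669 and PLAGL1 at chr6:144055213-144055512 had none either. Some further entries in MEG3 window 2, MEST window 2 and GNAS window 1 had it. PLAGL1 window 1 as a whole held 2 matches, a number reached by 11.1% of windows of a length within 10% of it. Of 35116 RefSeq promoters of this length, 16.7% held the hexamer, 16.7% the CTCF core and 6.58% the YY1 core. Over whole windows the hexamer was densest in PEG3 window 1, with 6 matches, a number reached by 0.334% of all windows of a length within 10% of it. PLAGL1 window 2 and MEST window 2 had 7 matches each, reached by 0.685% and 0.739% of windows of like length. H19 window 2 had 10 (1.05%), MEG3 window 2 had 6 (1.65%) and GNAS window 2 had 5 (2.43%). PEG3 window 1 also held 3 YY1 cores (0.921%). These are matches of letters and not measured binding.

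H3K4me3 was present at a start site of 8 of the 10 genes in all 6 libraries, and the exceptions were the non-coding H19 and MEG3, which had none at any window in any library. Among all genes 49.8% had H3K4me3 in all 6 libraries, and 72.9% of the genes with 2 or more windows. H3K27ac was present at 8 genes in all 6 libraries (46.1% of all genes, and 66.4% of those with 2 or more windows), at H19 in 5 libraries and at PLAGL1 in none. H3K27me3 was present in all 6 libraries only at PLAGL1 and PEG3, with 16.9% of all genes and 19.5% of those with 2 or more windows. IGF2, DLK1, PEG10, H19 and MEG3 held no H3K27me3 at their start sites or in their bodies in any library. H3K4me1 was present throughout at 6 genes (46.5% of all genes) and H3K4me2 at 7 (50.8%).

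**Figure D1:**
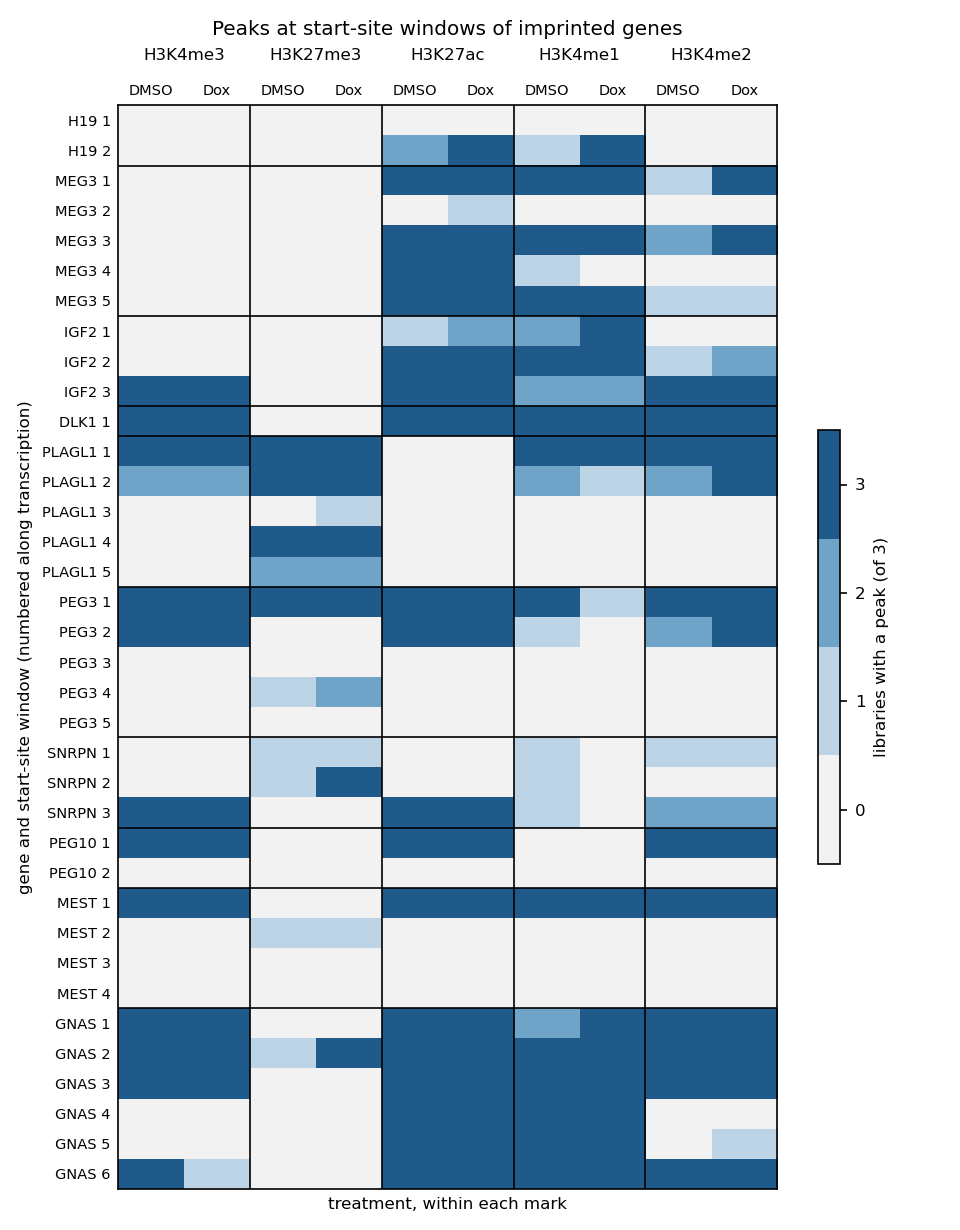
Number of libraries (of 3) with a peak in each of the 36 start-site windows, for 5 marks under DMSO and Doxycycline (Dox). The 23 windows without H3K4me3 are pale in the first pair of columns, and PLAGL1 is the gene whose windows combine H3K4me3 and H3K27me3 without H3K27ac.

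The marks differed in how many windows they occupied. A peak in at least 1 library lay in 13 of the 36 windows for H3K4me3, 11 for H3K27me3, 21 for H3K27ac, 23 for H3K4me1 and 19 for H3K4me2. Of the 180 pairs of window and mark, 55 held a peak in all 6 libraries, 93 in none and 32 in some. H3K4me3 lay in 11 of the 36 windows in all 6 libraries and in 23 windows in none. The windows with H3K4me3 in all 6 libraries had a ratio of observed to expected CpG of 0.448 to 0.850 (median 0.639), and those with none had 0.171 to 0.787 (median 0.313), against a median of 0.284 over all 79564 windows. The CpG-rich windows without H3K4me3 included the imprinted start of MEST (window 2, 0.787) and the main start of MEG3 (window 2, 0.611). PEG10 window 2 (0.592) and the H19 cluster of starts (window 2, 0.497) followed.

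Of the genes of growth control, IGF2 encodes a fetal growth factor and DLK1 a membrane ligand related to those of Notch, both expressed from the paternal copy. IGF2 (chr11:2129112-2158391, minus strand) carried an H3K4me3 peak that was the widest of the members in 5 libraries, with 12615, 11396 and 10472 bp in DMSO and 12552, 12158 and 5579 bp in Doxycycline. Only Doxycycline 3 was below 10 kb, where the widest GNAS peak (6491 bp) was larger, and the groups overlapped. This peak was wider than 99.5 to 99.98% of the peaks of its list, although by q value it ranked at the 61.6th to 71.9th percentile in 5 libraries and at the 49.5th in Doxycycline 3. H3K4me3 peaks covered all 5952 bases of window 3, which holds the downstream promoters and IGF2-AS, in 5 libraries and 5681 bases, over more than 1 peak, in Doxycycline 3. H3K27ac covered 78.9% to 86.2% of the IGF2 body, and windows 2 and 3 completely in all 6 libraries. The upstream IGF2 window 1 held no H3K4me3, and held H3K27ac in DMSO 1 (1227 bp) and in Doxycycline 1 and 2 (1171 and 822 bp). In Doxycycline 1 and 2 this was the end of a peak of 41.5 and 40.7 kb that lay upstream of the gene.

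DLK1 (chr14:100725705-100738224, plus strand) has a single window. Its widest H3K4me3 peak measured 7313, 5885 and 4692 bp in DMSO and 7031, 7346 and 5080 bp in Doxycycline. The range was alike in the groups, and replicate 3 was the narrowest of each. H3K27ac covered 100% of the DLK1 body in all 6 libraries, from a peak of 89.5, 89.0 and 35.6 kb in DMSO and 89.8, 89.8 and 21.9 kb in Doxycycline. The peak began 20.1 kb upstream of the first start in DMSO 3 and 6.43 kb upstream in Doxycycline 3, against 73.3 to 74.2 kb in the other 4 libraries, and its downstream edge was at 15.5 to 15.7 kb from the first start site in every library.

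MEG3, the maternally expressed non-coding RNA of the DLK1 cluster, had no H3K4me3 at its windows and H3K27ac in all 6 libraries. The H3K27ac peak at window 1 measured 32267, 31417 and 30498 bp in DMSO and 31302, 30850 and 29590 bp in Doxycycline, which overlap. It ended 13.8 to 15.0 kb inside the gene. Its upstream edge stood at -17.2, -17.2 and -16.5 kb from the first annotated start in DMSO and at -16.4, -15.8 and -15.8 kb in Doxycycline. These upstream edges did not overlap, and how often edges separate over all genes was not computed. Window 2, which holds the main MEG3 start printed above, held H3K27ac in Doxycycline 1 only (1741 bp) and no other mark. Windows 1, 3 and 5 also held H3K4me1 in all 6 libraries. The H3K4me3 peaks in the MEG3 body, outside the windows, covered 0.495%, 0.652% and 0.338% of it in DMSO and 1.01%, 0.381% and 0% in Doxycycline.

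H19, a maternally expressed non-coding RNA downstream of IGF2, gave 2 of the 3 separations of the groups at start sites (chr11:1995166-2004552, minus strand). H3K27ac covered 332, 846 and 0 bp of its windows in DMSO and 3309, 2252 and 1608 bp in Doxycycline, all of it in window 2. Every Doxycycline library was above every DMSO library, and DMSO 3 had no peak there. The means were 393 ± 426 bp and 2389.7 ± 859 bp (SD, n = 3 each), a difference of 1997 bp with an exact two-sided permutation p of 0.1, the smallest that 20 assignments of 6 libraries allow, and a Benjamini-Hochberg adjusted p of 0.871 over all genes tested. Of all genes with a peak, 11.5% were separated in this way for H3K27ac and 4.67% with Doxycycline higher. In the H19 body the covered share was 4.75%, 10.2% and 0% in DMSO and 36.5%, 25.2% and 18.3% in Doxycycline, 4.99 ± 5.12% against 26.7 ± 9.15% (exact permutation p = 0.1, adjusted p = 0.599). For bodies the background was 16.7% in either direction and 5.16% with Doxycycline higher.

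The signal at H19 was the near edge of a much larger peak that lay mostly beyond the 3′ end of the gene. It measured 49.6 and 49.8 kb in DMSO 1 and 2 and 52.7, 51.6 and 50.9 kb in Doxycycline. In DMSO 3 the nearest peak was 33.5 kb long and ended 352 bp short of window 2. The upstream edge stood 8.94, 8.43 and 9.62 kb after the first start site of H19 in DMSO and 5.96, 7.02 and 7.67 kb after it in Doxycycline. None of the 24 annotated H19 start sites lay under H3K27ac in any DMSO library, and 11, 4 and 2 did in Doxycycline. The H3K27ac lists themselves held 55153 to 71603 peaks in DMSO and 48171 to 60292 in Doxycycline, and the part of depth and list length in this edge was not tested.

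**Figure D2:**
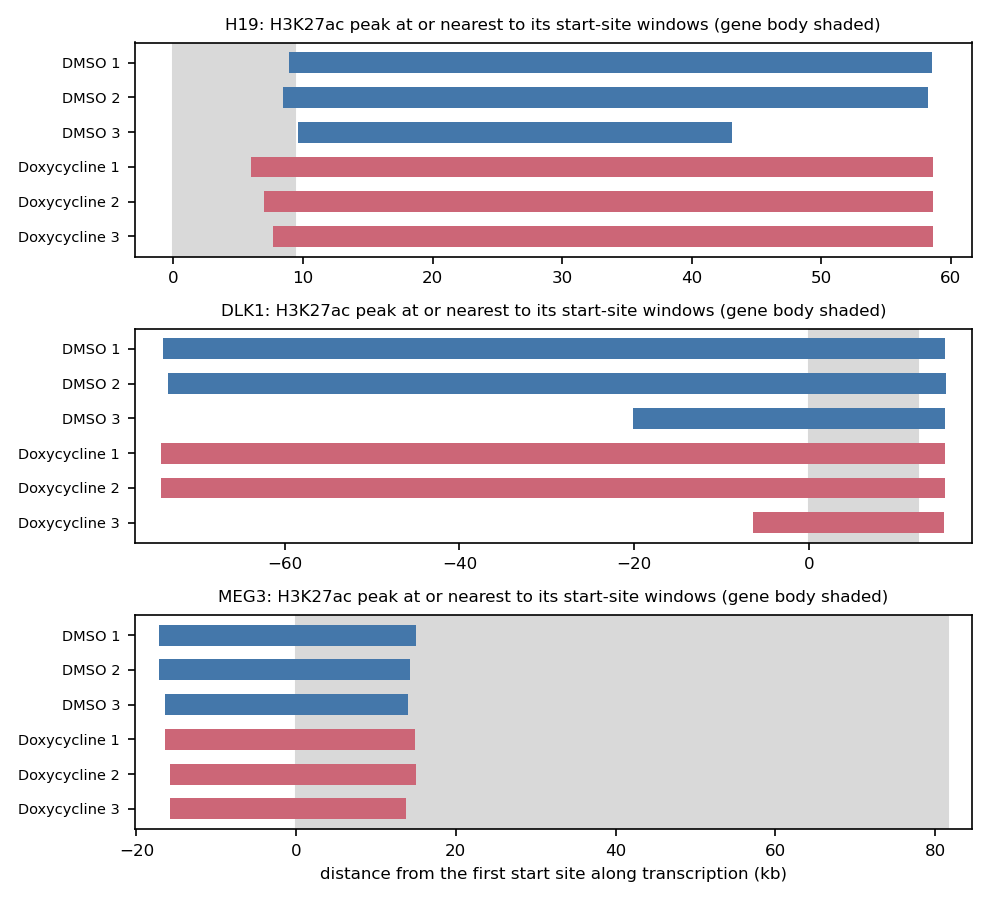
H3K27ac peak at, or nearest to, the start-site windows of H19, DLK1 and MEG3 in each of 6 libraries, as distance in kb from the first annotated start along transcription, with the gene body shaded. At H19 the 3 Doxycycline bars begin inside the gene at 5.96 to 7.67 kb and the DMSO bars at 8.43 to 9.62 kb. The edges inside or behind DLK1 and MEG3 overlap across groups. The upstream edges of MEG3 do not, at -17.2 to -16.5 kb in DMSO and -16.4 to -15.8 kb in Doxycycline.

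H3K4me1 was also separated at H19. It covered 93, 0 and 0 bp of window 2 in DMSO and 166, 371 and 235 bp in Doxycycline, so that the groups did not overlap (exact permutation p = 0.1, adjusted p = 1). This separation occurred in 10% of all genes with an H3K4me1 peak, 3.9% with Doxycycline higher. In the body H3K4me1 covered 2.21%, 0% and 0% in DMSO and 2.98%, 5.17% and 3.72% in Doxycycline, with a background of 11.2% in either direction and 3.54% with Doxycycline higher. These lengths, at most 371 bp in the window, belong to a gene of 9387 bp, and H19 had no H3K4me3, H3K4me2 or H3K27me3 at its windows.

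PLAGL1 encodes a zinc finger protein that restrains growth, and its imprinted start (window 2, shared with the non-coding HYMAI) lies downstream of a start used from both copies (window 1). In window 1 H3K4me3 and H3K27me3 coincided in all 6 libraries. The H3K4me3 peak there measured 1189, 1384 and 1152 bp in DMSO and 1361, 1413 and 1142 bp in Doxycycline, and every base of it lay under H3K27me3. H3K27me3 covered the 2089 bp of the window completely in 5 libraries and 1727 bp of it in DMSO 3. H3K4me1 and H3K4me2 were also present in all 6 libraries, and H3K27ac was absent from every PLAGL1 window in every library.

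In PLAGL1 window 2, H3K27me3 was present in all 6 libraries and H3K4me3 in replicates 1 and 2 of each group. H3K27me3 covered 3364, 1702 and 891 bp in DMSO and 3477, 3477 and 2395 bp in Doxycycline, and H3K4me3 covered 462, 495 and 0 bp in DMSO and 677, 291 and 0 bp in Doxycycline. The groups overlapped for both marks. By q value the H3K27me3 peak of window 1 ranked at the 92.9th to 98.6th percentile of its list in DMSO and at the 80.3rd to 90.5th in Doxycycline, and the H3K4me3 peak of that window at the 36.8th to 49.9th over the 6 libraries. These H3K27me3 ranks did not overlap, but they come from lists of 62490 to 157087 peaks in DMSO and 56926 to 135665 in Doxycycline. How often ranks separate over all genes was not computed, and the part of list length was not tested. The best-ranked H3K27me3 peak at any PLAGL1 start site overlapped between the groups. It stood at the 95.7th to 98.6th percentile in DMSO and the 91.7th to 96.1st in Doxycycline.

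PEG3 encodes a zinc finger protein expressed from the paternal copy, and its window 1 is the shared promoter with MIMT1 and ZIM2. This window held H3K4me3, H3K27me3 and H3K27ac together in all 6 libraries, a combination found in 1.07% of all genes. The bases under both H3K4me3 and H3K27me3 numbered 805, 453 and 176 in DMSO and 933, 902 and 184 in Doxycycline. Those under H3K27ac and H3K27me3 numbered 262, 56 and 0 in DMSO and 578, 464 and 168 in Doxycycline and DMSO 3 had both marks in the window without a shared base. Of the H3K27ac in this window, 660, 818 and 156 bp in DMSO and 840, 754 and 1096 bp in Doxycycline, the smaller part thus lay under H3K27me3 in 4 libraries and the larger part in Doxycycline 1 and 2. Window 2 of PEG3 carried H3K4me3 and H3K27ac in all 6 libraries with no H3K27me3.

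The width of H3K4me3 at PEG3 was separated between the groups. The widest peak measured 1711, 1665 and 1731 bp in DMSO and 1663, 1479 and 937 bp in Doxycycline, a log2 difference of -0.37 (exact permutation p = 0.1), which was -0.12 without Doxycycline 3. DMSO 2 and Doxycycline 1 were 2 bp apart, and Doxycycline 3 was the narrowest. The widths of 10.8% of the 19301 genes with H3K4me3 in all 6 libraries were separated in either direction, 7.2% with Doxycycline lower. Summed over all PEG3 windows, H3K4me1 covered 2056, 943 and 977 bp in DMSO and 776, 0 and 0 bp in Doxycycline. The means were 1325 ± 633 bp against 259 ± 448 bp (exact permutation p = 0.1, adjusted p = 1), and 6.09% of genes were separated in this direction. No single PEG3 window was separated for H3K4me1. In the windows of ZIM2, which overlap those of PEG3, it covered 750, 943 and 977 bp in DMSO and 776, 0 and 0 bp in Doxycycline, so the groups overlapped. These H3K4me1 peaks were weak, at the 1.87th to 66.5th percentile by q value, and with peaks of q 0.001 or less the separation was lost.

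**Figure D3:**
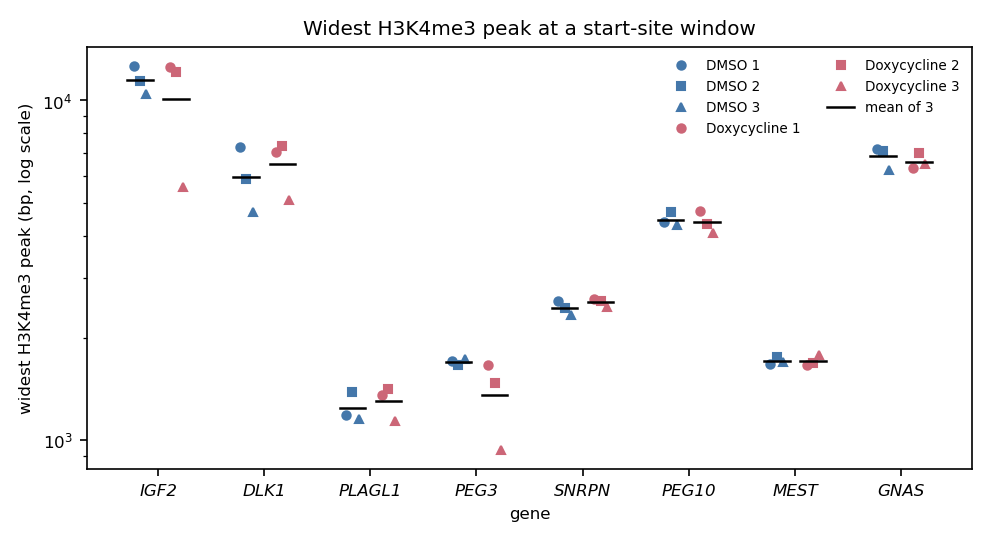
Width in bp (log scale) of the widest H3K4me3 peak at a start-site window of each of the 8 genes that have one, with 1 symbol per library and the mean of 3 as a line. PEG3 is the 1 gene of the 8 whose groups do not overlap, and the Doxycycline 3 peaks of IGF2 (5579 bp) and PEG3 (937 bp) lie below all other libraries.

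SNRPN encodes a splicing protein, and its window 3, shared with SNURF, is the paternally active start of the Prader-Willi region. It carried H3K4me3 and H3K27ac in all 6 libraries and no H3K27me3. Its H3K4me3 peak measured 2566, 2457 and 2337 bp in DMSO and 2608, 2572 and 2463 bp in Doxycycline, and the groups overlapped. The upstream windows 1 and 2 held no H3K4me3 or H3K27ac. Window 1 held H3K27me3 in replicate 1 of each group (1013 and 2089 bp), and window 2 held it in DMSO 1 (1208 bp) and in Doxycycline 1, 2 and 3 (2039, 1229 and 334 bp). Within SNRPN, therefore, H3K27me3 and the active marks occupied different windows.

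PEG10, a retrotransposon-derived gene expressed from the paternal copy, shares its window 1 with SGCE. All 2222 bases of this window were under H3K4me3 and under H3K27ac in all 6 libraries. The H3K4me3 peak measured 4387, 4698 and 4293 bp in DMSO and 4739, 4343 and 4071 bp in Doxycycline, which overlap. Its width was above 97.2% of the peaks of each list. SGCE, which has further windows of its own, was separated for H3K27ac (3226, 2957 and 2580 bp in DMSO and 3560, 5509 and 5733 bp in Doxycycline), while the window shared with PEG10 was fully covered in every library.

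MEST encodes a hydrolase-like protein expressed from the paternal copy in embryonic tissue. All its active marks lay at the upstream window 1. H3K4me3 measured 1680, 1754 and 1705 bp there in DMSO and 1667, 1692 and 1782 bp in Doxycycline, a log2 difference of 0.00020, and H3K27ac was present in all 6 libraries. Window 2, the imprinted start shared with MESTIT1 and the CpG-rich sequence printed above, held no H3K4me3, H3K27ac, H3K4me1 or H3K4me2 in any library. It held H3K27me3 in replicate 1 of each group (288 and 265 bp).

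GNAS, which encodes the stimulatory G protein alpha subunit, has start sites for the transcripts NESP55 (window 1), XLas (window 2) and A/B with Gs-alpha (window 3) from upstream to downstream. These 3 windows carried H3K4me3 and H3K27ac in all 6 libraries. At the XLas window H3K27me3 covered 709, 0 and 0 bp in DMSO and 703, 622 and 574 bp in Doxycycline. The groups overlapped through DMSO 1, and so the number of members with H3K4me3 and H3K27me3 in 1 window was 3, 2 and 2 in DMSO and 3, 3 and 3 in Doxycycline (exact permutation p = 0.4). In GNAS window 6 H3K4me3 covered 437, 657 and 802 bp in DMSO and 253, 0 and 0 bp in Doxycycline, a separation picked out after its values were seen. It was one of 3 separated among the 87 pairs of window and mark with any peak, the others being those of H19, against 7.42% of such pairs over all genes. The H3K4me3 of all GNAS windows together covered 12833, 12878 and 11750 bp in DMSO and 12141, 11954 and 11218 bp in Doxycycline, which overlap, although Doxycycline was lower in each same-numbered pair.

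H3K4me3 and H3K27me3 thus shared a window in all 6 libraries in 2 of the 10 genes, PLAGL1 and PEG3, compared with 6.3% of all genes and 8.96% of genes with 2 or more windows. With peaks limited to q 0.001 or less, a limit that every deposited H3K4me3 peak already met, PLAGL1 had both marks in 1 window in 5 libraries and PEG3 in 4, so no gene had them in all 6. H3K27me3 itself was still at a PLAGL1 start site in all 6. With the lists of each mark cut to equal length, PLAGL1 had both in 6 libraries and PEG3 in 5.

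H3K27me3 in the bodies was widest at PLAGL1, SNRPN and PEG3, with large differences between libraries of a group. At PLAGL1 it covered 46.4%, 6.77% and 6.68% of the body in DMSO and 62.5%, 40.4% and 8.51% in Doxycycline. At SNRPN it covered 47.3%, 4.11% and 4.92% in DMSO and 66.7%, 47.9% and 5.85% in Doxycycline. At PEG3 it covered 16.7%, 0.998% and 1.48% in DMSO and 31.8%, 17.8% and 0.457% in Doxycycline. The high values at all 3 genes were those of DMSO 1, Doxycycline 1 and Doxycycline 2, the libraries with the long estimated fragment. Among these, PLAGL1 was at 46.4% in DMSO and a mean of 51.4% in Doxycycline, and among the short-fragment libraries at a mean of 6.73% and at 8.51%. SNRPN was at 47.3% and a mean of 57.3% among the former and at a mean of 4.52% and at 5.85% among the latter. PEG3 was at 16.7% and a mean of 24.8% among the former, and among the latter Doxycycline was the lower, at 0.457% against a mean of 1.24%. The exact permutation p was 0.5 for PLAGL1, 0.2 for SNRPN and 0.4 for PEG3.

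**Figure D4:**
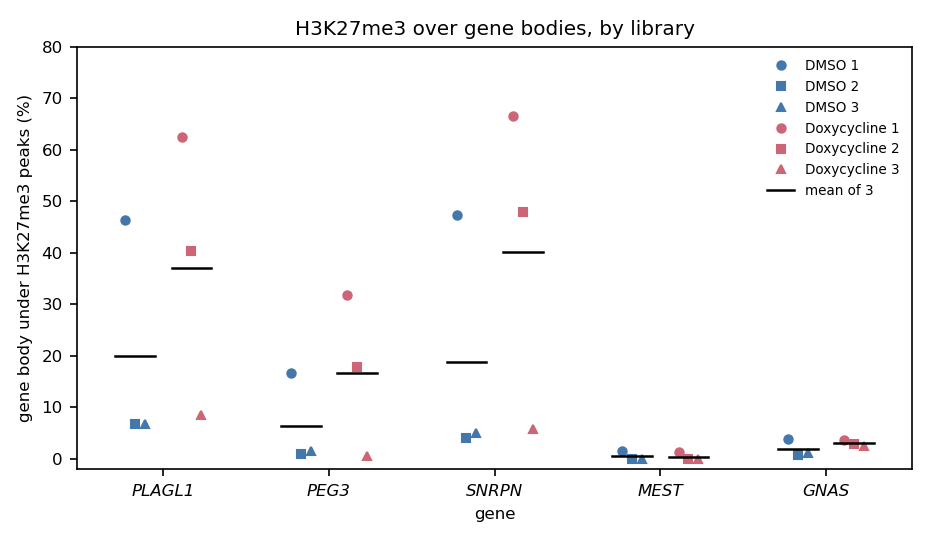
Share of the gene body under H3K27me3 peaks (%) in each library for the 5 members with any, with 1 symbol per library and the mean of 3 as a line. At PLAGL1, PEG3 and SNRPN the points of DMSO 1, Doxycycline 1 and Doxycycline 2 stand apart from those of the other 3 libraries.

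Values of the members that were separated by treatment are set here beside the shares over all genes. At start sites 3 of the 40 pairs of gene and mark with any peak were separated, the H3K27ac and H3K4me1 of H19 and the H3K4me1 of PEG3, where the background was 9.55% for H3K4me3, 2.12% for H3K27me3, 11.5% for H3K27ac, 10% for H3K4me1 and 2.74% for H3K4me2. In bodies 2 of 42 were, both of H19, where it was 11.3% for H3K4me3, 1.18% for H3K27me3, 16.7% for H3K27ac, 11.2% for H3K4me1 and 3.05% for H3K4me2. No member passed an adjusted p of 0.05 by the exact permutation test over all genes, and none can reach an unadjusted p below 0.1 with 3 libraries against 3. No window had a mark in 3 of 3 libraries of a group and 0 of 3 of the other, which 0.741% of pairs of window and mark did over all genes. For the 8 genes with H3K4me3, the median log2 difference of the widest peak was -0.01 (4 wider and 4 narrower in Doxycycline), against -0.03 over all genes.

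When same-numbered libraries were compared, all 3 pairs moved the same way for 13 of the 40 pairs of gene and mark at start sites (10 higher and 3 lower in Doxycycline) and 19 of 42 in bodies (13 higher and 6 lower), against 24.9% and 30.6% over all genes. H3K4me3 was the only mark for which the deviations of same-numbered libraries correlated above 0.1 in every pair, and for it SNRPN was higher and PEG3 and GNAS lower in Doxycycline in all 3 pairs at start sites. The H3K27me3 of PLAGL1 and SNRPN was also higher in each pair, but its pair 2 had a correlation of -0.044 and set a list with an estimated fragment of 112 bp (DMSO 2) against one of 280 bp (Doxycycline 2). The exact paired sign-flip test cannot go below p = 0.25. Without DMSO 1, 12 pairs at start sites and 10 in bodies were separated, where 17.8% and 20.1% of all genes were.

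The 32 other imprinted genes held H3K4me3 in all 6 libraries at 23 genes, H3K27ac at 19 and H3K27me3 at 14. Over all genes these shares were 49.8%, 46.1% and 16.9%, and over genes with 2 or more windows 72.9%, 66.4% and 19.5%. Both H3K4me3 and H3K27me3 lay in 1 window in all 6 libraries at 7 of the 32, against 6.3% of all genes and 8.96% of those with 2 or more windows. The 7 were KCNQ1, NDN, L3MBTL1, KLF14, DIO3, ZIM2 and ZDBF2, of which ZIM2 shares the window of PEG3. DIO3, at the far end of the DLK1 and MEG3 cluster, thus held H3K27me3 in every library, whereas DLK1 and MEG3 held none. NDN, in the same cluster as SNRPN, also held it in every library, and SNRPN held it at start sites in 1 DMSO and 3 Doxycycline libraries. RTL1, MKRN3 and UBE3A, also among the 32, held no H3K27me3 at their start sites in any library. For H3K4me3, 4 of the 32 were separated between treatments (9.55% over all genes with a peak): NDN, ZDBF2 and FAM50B lower and KLF14 higher in Doxycycline. The shares of separated genes here and below leave out genes without a peak of the mark, whereas the 32 include some. At NDN H3K4me3 covered 753, 866 and 738 bp in DMSO and 431, 504 and 448 bp in Doxycycline, in a window that H3K27me3 covered over 1507 to 2001 bp. H3K27ac was separated at SGCE and ZNF331 (11.5% over all genes) and H3K4me1 at SGCE, KLF14, DIO3 and WT1 (10%), all higher in Doxycycline. H3K27me3 (2.12%) and H3K4me2 (2.74%) were separated at none.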

How the data were processed

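Each deposited list holds peaks called by the authors with MACS2 (2.1.1.20160309 per the file headers) on hg38, with Bowtie2, SAMtools and deepTools named in the submitters' processing notes. H3K4me1, H3K27ac and H3K27me3 were called as broad peaks (q 0.05, linking q 0.1; 18 lists) and H3K4me2 and H3K4me3 as narrow peaks (p 1e-05; 12 lists), per the file headers. The headers name single-ended reads and the study's methods paired-end reads. The input of replicate 3 has the same read total as that of replicate 1 in each treatment, per the file headers. The deposited columns are the peak's length, its pileup signal, −log10 p-value and q-value, and fold enrichment over input.

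Start-site windows and bodies came from GENCODE 44, with covered bases per library as the measure and any overlap of 1 bp as presence. Sequences came from RefSeq and hg38. Percentiles rank a peak within its own list. Groups were compared by the exact two-sided permutation test over 20 assignments, adjusted (Benjamini-Hochberg) over all genes with a peak; "separated" means that the 3 and 3 values do not overlap. Nothing in the sources used here says that replicates were separate cultures, so p-values measure the spread between these libraries. The text names all 10 members, the other imprinted genes that were separated or held H3K4me3 and H3K27me3 in all 6 libraries, and genes sharing a member's window. RTL1, MKRN3 and UBE3A are named besides, as genes without H3K27me3. Members, lists and motifs were chosen with earlier results of these data known. Replicate numbers were checked over all genes: the correlations of same-numbered deviations were 0.102 to 0.367 for H3K4me3, above 0.1 in every pair, while the lowest was -0.044 for H3K27me3, 0.026 for H3K27ac, 0.059 for H3K4me1 and 0.099 for H3K4me2. One gene of the marker list is not reported here. The scripts were tested on simulated data. Python 3.11.15, numpy 2.4.6, scipy 1.17.1 and matplotlib 3.10.9 were used.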

Additional observations from a re-analysis of the deposited data

How the results depend on the processing

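Alternatives were windows of 2.5 kb or 500 bp, peaks of q 0.001 or less, 200 bp of overlap, lists of equal length, the canonical start only, presence in 2 of 3 libraries, the replicate block and leaving out each library. By construction the replicate block leaves a difference of means as it is, and q 0.001 removes no H3K4me3 or H3K4me2 peak. Members with H3K27me3 in all 6 libraries numbered 4 at 2.5 kb, 1 at q 0.001 and 1 at equal length, instead of 2. With H3K4me3 and H3K27me3 in 1 window they numbered 0 at q 0.001, 1 at equal length and 1 at the canonical start, instead of 2. At 2.5 kb GNAS joined PLAGL1 and PEG3 with both marks in 1 window in all 6 libraries. At the canonical start H3K4me1 was in all 6 libraries at 2 members instead of 6 and H3K4me2 at 4 instead of 7, and H3K4me1 at 11 other imprinted genes instead of 18. At q 0.001 those with H3K4me1 numbered 9 and those with H3K27me3 4 instead of 14. The replicate block gave 13 pairs of gene and mark moving the same way at start sites and 19 in bodies. Beyond H3K4me3, same-numbered deviations did not correlate above 0.1 in every pair, although those of H3K4me2 were at 0.413, 0.247 and 0.099. The estimated fragment also went with the number, for H3K27ac 232, 278 and 228 bp in DMSO and 229, 273 and 223 bp in Doxycycline. What the numbers share was not tested. Leaving out 1 library gave 4 to 12 separated pairs at start sites (3 with all) and 5 to 10 in bodies (2 with all), with the most without DMSO 1, and 0 to 4 windows with a mark in every library of a group and none of the other, 4 without DMSO 1 and 2 without Doxycycline 1. Over all genes, 17.8% of pairs at start sites and 20.1% in bodies were separated without DMSO 1. Shares over all genes were not computed for the other libraries left out or for these windows. The causes were not tested, apart from the fewer libraries and start sites that these alternatives hold by construction.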
